A study of Mus musculus with 6 samples.

Results

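Small RNA of mouse heart muscle (myocardial tissue) was sequenced in 3 libraries taken 6 d after death and 3 taken at 0 h. The 6 miRNA entries described here are mmu-miR-6538, mmu-miR-2137, mmu-miR-6236, mmu-miR-6240, mmu-miR-664-5p and mmu-miR-664-3p, of the 984 mature miRNAs in the files. They were picked by name because they were near-absent at 0 h and high at 6 d, so their difference between intervals is given as a description, with no test. The labels give tissue and interval only, with no strain, age, sex or treatment for either group, and do not tell whether replicates are separate animals, so errors may cover technical spread only. The series title names estimation of the time since death as its subject.

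A miRNA is cut from a hairpin precursor by the nucleases Drosha and Dicer, and 1 of the 2 arms is then usually kept by an Argonaute protein. Bases 2 to 8 of the kept arm, the seed, pair with target mRNAs. Small nucleolar RNAs (snoRNAs) and small Cajal body RNAs (scaRNAs) belong to another class, which guides chemical modification of ribosomal and spliceosomal RNA. Some entries in miRNA catalogues overlap such structural RNAs, and a sequencing read cannot tell a processed miRNA from a fragment of the longer RNA that has the same bases.

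The mature sequences, from RefSeq on GRCm38.p6, are shown because 4 of them are unusually rich in G and C, with the seed in capitals.
miR-6538: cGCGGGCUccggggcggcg
miR-2137: gCCGGCGGgagccccagggag
miR-6236: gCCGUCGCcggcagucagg
miR-6240: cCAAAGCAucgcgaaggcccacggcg
miR-664-5p: cUGGCUGGggaaaaugacugg
miR-664-3p: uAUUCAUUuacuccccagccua
All 6 members matched the RefSeq table, as did 851 of the 984 miRNAs. The GC content was 94.7% for miR-6538, 85.7% for miR-2137, 78.9% for miR-6236 and 69.2% for miR-6240, against a median of 50% over the 851 miRNAs. These 4, called the GC-rich members below, lay at percentiles 99.8, 99.6, 99.0 and 96.7 of that distribution. The arms of miR-664 were ordinary in this respect, with 57.1% for miR-664-5p and 40.9% for miR-664-3p. No seed was shared between members, and the longest run shared by any pair was 6 bases, so the members are not copies of 1 sequence. The seed of miR-6240 was shared with 1 other miRNA of the files, and the other seeds with 0.

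The members lie on 5 chromosomes (GRCm38.p6, RefSeq positions, with GENCODE M21 gene models). The hairpin of miR-6538 lies at chr12:26414901-26415010 on the minus strand, in an intron of Rnf144a, and that of miR-2137 at chrX:72992079-72992144 on the plus strand, in an intron of Zfp185. The hairpin of miR-6240 lies at chr5:114851948-114852064 and mature miR-6236 at chr9:110281353-110281371, both on the plus strand, where the gene models hold only the miRNA genes themselves. The hairpin of miR-664 lies at chr1:185242975-185243043 on the plus strand, in an intron of Rab3gap2, and overlaps the snoRNA gene Snora36b (chr1:185242907-185243038, plus strand).

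Whether the members match structural RNA was examined in the 3910 snoRNA, scaRNA, small nuclear, ribosomal, mitochondrial and other short RNA transcripts of GENCODE M21. Both arms of miR-664 lie whole inside Snora36b, which is 132 bases long, with miR-664-5p at bases 69 to 89 and miR-664-3p at bases 106 to 127. The snoRNA is printed with the 64 bases that it shares with the miR-664 hairpin in capitals, and the hairpin with its 2 arms in capitals.
Snora36b: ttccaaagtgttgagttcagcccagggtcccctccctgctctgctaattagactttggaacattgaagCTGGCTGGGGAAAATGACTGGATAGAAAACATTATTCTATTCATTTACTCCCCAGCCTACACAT
Mir664: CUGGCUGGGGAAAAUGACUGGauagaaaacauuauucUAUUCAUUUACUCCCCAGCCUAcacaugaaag
The 4 GC-rich members each shared at most 10 bases in a row with any of these RNAs, and the median over the 851 miRNAs was 11. The longest ribosomal transcript searched was 1849 bases, so the large 28S ribosomal RNA and its precursor were not searched, nor were nuclear transfer RNAs. A structural RNA match was therefore found for the miR-664 arms and not for the GC-rich members in this search.

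The RefSeq hairpins differed in how well they fold. RNAfold gave the miR-6240 hairpin a minimum free energy of -24.7 kcal/mol over 117 bases, or -0.211 per base. This is weaker than nearly all of the 579 hairpins folded (percentile 99.7, median -0.421 per base). The hairpin is printed with the mature sequence in capitals.
Mir6240: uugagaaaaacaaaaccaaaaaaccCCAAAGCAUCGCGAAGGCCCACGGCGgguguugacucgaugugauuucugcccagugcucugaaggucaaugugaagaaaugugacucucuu
The hairpins of miR-664 (-0.407 per base), miR-2137 (-0.373) and miR-6538 (-0.470) lay at percentiles 57.9, 72.3 and 27.4, within the bulk. These energies were not adjusted for GC content, which was 40.6%, 60.6% and 75.5% in the same hairpins, against a median of 51.25%. In the predicted structures 73.7% of the bases of miR-6538 were paired, 81.0% of miR-2137, 73.1% of miR-6240, 71.4% of miR-664-5p and 81.8% of miR-664-3p, against a median of 81.8% over 806 mature sequences. The entry of miR-6236 was used as a mature sequence only.

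Depth differed between the intervals, with 617069 to 1889594 miRNA reads in the 6 d libraries and 4468547 to 7906557 in the 0 h libraries. Levels are normalised CPM, reads per 1000000 after a further scaling factor per library, and 3 reads, a floor for detection, equal 1.91 to 3.97 CPM at 6 d and 0.463 to 0.730 CPM at 0 h. Intervals and floors cover counting error only. Levels of 4 miRNAs listed for heart muscle, miR-1a-3p, miR-133a-3p, miR-208a-3p and miR-499-5p, were summed. The sums were 535886, 313737 and 113384 CPM in 6 d replicates 1, 2 and 3 and 298859, 491587 and 256870 CPM at 0 h. Nearly all of this was miR-1a-3p, and the others did not move alike, so the sum does not check the tissue label. Levels of miR-133a-3p were 1751, 2589 and 2470 CPM at 6 d against 674, 914 and 926 CPM at 0 h. Those of miR-208a-3p were 139, 47.6 and 50.5 CPM at 6 d against 182, 162 and 261 CPM at 0 h. For miR-499-5p they were 1284, 867 and 799 CPM at 6 d against 1792, 2688 and 4044 CPM at 0 h. Each of the 19 markers in the 8 lists of heart and other cells had reads in at least 1 library.

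At 6 d the 4 GC-rich members together held 277, 1735 and 721 reads in replicates 1, 2 and 3, against 10, 19 and 12 reads at 0 h, although the 0 h libraries were the deeper ones. As a share of all miRNA reads this was 0.0147% (95% exact binomial interval 0.0130 to 0.0165), 0.248% (0.236 to 0.260) and 0.117% (0.108 to 0.126) at 6 d. At 0 h the shares lay between 0.000164% and 0.000240%. The lowest 6 d share was thus far above the highest 0 h share, and the 6 d libraries differed widely from each other.

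For miR-6538 there were 155, 774 and 416 reads in the 6 d libraries and 3, 4 and 5 in the 0 h libraries, or 98.7, 1024 and 375 CPM at 6 d against 0.730, 0.666 and 0.772 CPM at 0 h. All 6 d libraries lay far above all 0 h libraries. With so few reads at 0 h, how close those libraries are to each other cannot be judged. Their 95% exact intervals for counting error were 0.151 to 2.13, 0.181 to 1.70 and 0.251 to 1.80 CPM. By number of reads miR-6538 ranked between 43 and 129 among the miRNAs of the 6 d libraries, and between 481 and 486 at 0 h. The log2 fold change on the log2(CPM + 1) scale was 7.62 ± 0.72 (SE, n = 3 each), and the ratio of pooled levels was 542 (95% exact interval for counting error 309 to 1051).

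Reads of miR-2137 were scarcer, with 27, 418 and 97 at 6 d and 2, 0 and 0 at 0 h. In CPM this was 17.2, 553 and 87.5 at 6 d, against 0.487 CPM in 0 h replicate 1. There were none in 0 h replicates 2 and 3, where a count of 0 allows up to 0.614 and 0.570 CPM (95% exact upper bounds for counting error). The groups did not overlap, and 1 library, 6 d replicate 2, held most of the reads. The log2 fold change was 6.40 ± 1.01 (SE, n = 3 each) on the log2(CPM + 1) scale and 10.6 by edgeR on recovered reads, and the pooled ratio was 1309 (361 to 10839). With 2 reads at 0 h the size of the difference depends on the pseudocount.

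The level of miR-6236 was 30.6, 192 and 123 CPM at 6 d, from 48, 145 and 136 reads, against 0.487, 0.831 and 0.309 CPM at 0 h, from 2, 5 and 2 reads. Here the 6 d replicates 2 and 3 were nearer to each other than for the other GC-rich members. The log2 fold change was 5.90 ± 0.62 (SE, n = 3 each), and the pooled ratio 177 (91.9 to 390).

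The weakly folding miR-6240 had 29.9, 527 and 65.0 CPM at 6 d, from 47, 398 and 72 reads, against 0.730, 1.66 and 0.772 CPM at 0 h, from 3, 10 and 5 reads. Replicate 2 was again by far the highest at 6 d, while the lowest 6 d library was still above every 0 h library. The log2 fold change was 5.67 ± 0.88 (SE, n = 3 each), and the pooled ratio 139 (86.9 to 236).

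Of the miR-664 arms, miR-664-5p had 53.5, 193 and 142 CPM at 6 d, from 84, 146 and 157 reads, against 1.46, 2.66 and 1.54 CPM at 0 h, from 6, 16 and 10 reads. The groups did not overlap. The log2 fold change was 5.34 ± 0.51 (SE, n = 3 each), and the pooled ratio 58.4 (40.7 to 86.6). The other arm behaved otherwise. Levels of miR-664-3p were 6.37, 2.65 and 6.32 CPM at 6 d, from 10, 2 and 7 reads, against 3.16, 3.33 and 4.48 CPM at 0 h, from 13, 20 and 29 reads. Its groups overlapped, its log2 fold change was 0.33 ± 0.44 (SE, n = 3 each), and it was not near-absent at 0 h and high at 6 d as the choice of members assumed.

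**Figure D1:**
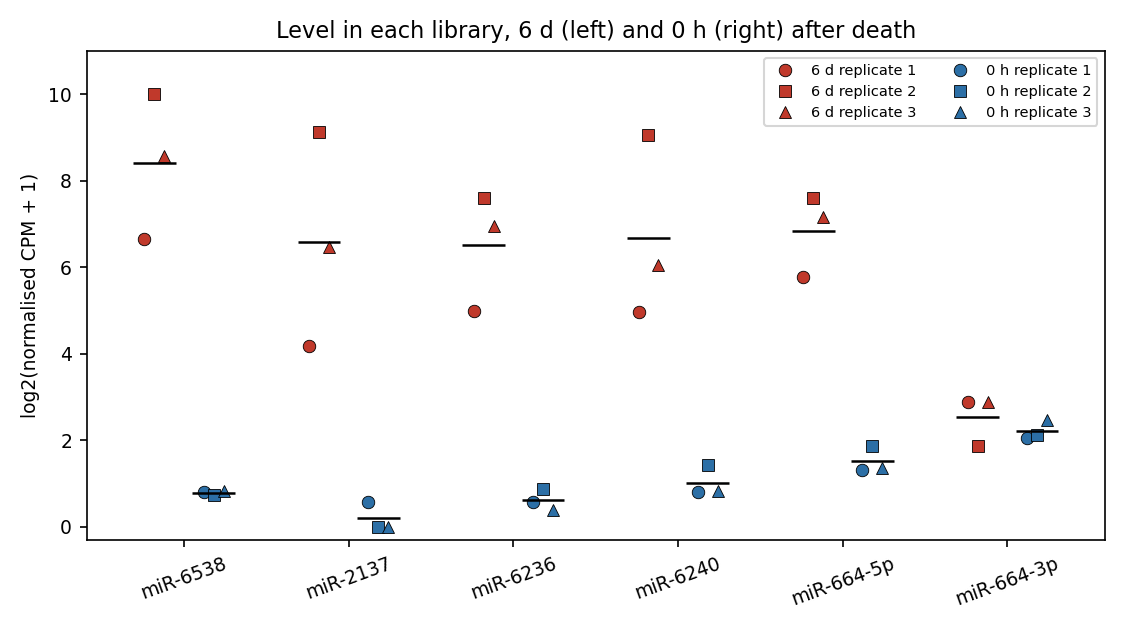
Level of each member in each library as log2(normalised CPM + 1), with 6 d libraries on the left (red) and 0 h libraries on the right (blue) of each name, the symbol giving the replicate and the bar the group mean (n = 3). For 5 of the 6 members all 6 d points lie above all 0 h points, replicate 2 being the highest and replicate 1 the lowest of the 6 d points, while the points of miR-664-3p overlap.

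All 6 members passed the filter of at least 1 CPM in at least 3 libraries, but the 4 GC-rich members did so only through the 6 d libraries, since at most 1 of their 0 h libraries reached 1 CPM. In the limma fit over all 470 miRNAs that passed, 5 of the 6 members were called (adjusted p under 0.05), all higher at 6 d, where 37.9% of all tested miRNAs were called and 16.0% were called higher. Over all miRNAs the calls were 75 higher and 103 lower on the deposited scale, and 83 higher and 40 lower with library totals alone. The edgeR test on the recovered reads called the same 5, where 22.3% of 363 were higher. Complete separation with 6 d above 0 h held for the same 5 members and for 19.8% of the 470. The members were chosen on this contrast, so nothing is read from these counts. By log2 fold change on the log2(CPM + 1) scale the members ranked 1 (miR-6538), 2 (miR-2137), 5 (miR-6236), 6 (miR-6240), 7 (miR-664-5p) and 145 (miR-664-3p) of 470. The order of the first pair depends on that scale, since edgeR gave 10.6 for miR-2137 and 9.56 for miR-6538, DESeq2 gave 10.8 and 9.69, and the pooled ratios were 1309 and 542.

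**Figure D2:**
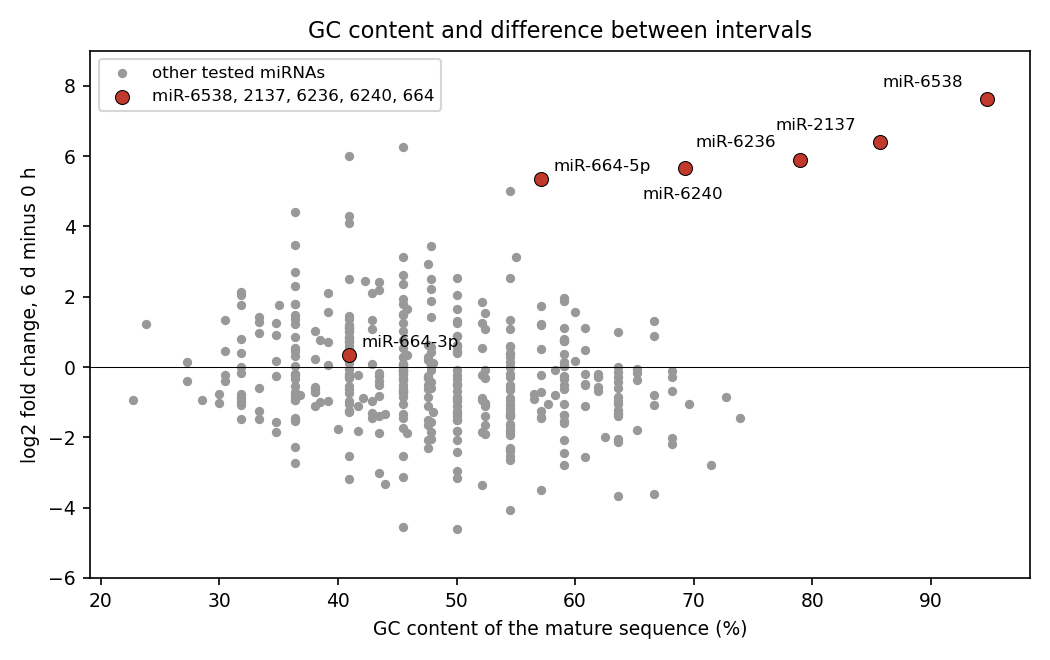
GC content of the mature sequence (horizontal, percent) and log2 fold change of 6 d over 0 h (vertical) for the tested miRNAs with a RefSeq sequence, the members in red. The GC-rich members lie at 69.2% to 94.7% GC and above 5.6 on the log2 scale, while miR-339-3p, the richest in GC of the other tested miRNAs at 73.9%, lies at -1.45.

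The log2 fold changes leaned on single 6 d libraries. Without 6 d replicate 2 they were 6.81 for miR-6538, 5.14 for miR-2137, 5.35 for miR-6236, 4.49 for miR-6240 and 4.96 for miR-664-5p. Without 6 d replicate 1 they were 8.50, 7.60, 6.66, 6.53 and 5.87 in the same order. The 4 GC-rich members moved by more than 1.5-fold in level in at least 1 of these settings, and the direction held in all of them.

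The 3 libraries at 6 d ranked the same way for 5 members. On the deposited scale miR-6538, miR-2137, miR-6236, miR-6240 and miR-664-5p were lowest in replicate 1, intermediate in replicate 3 and highest in replicate 2. Of the 370 miRNAs with at least 10 reads over the 6 d libraries, which include the members, 55 or 14.9% had that order. The exception, miR-664-3p, was lowest in replicate 2. The ratio of replicate 2 to replicate 1 was 32.2 for miR-2137, 17.6 for miR-6240, 10.4 for miR-6538, 6.28 for miR-6236 and 3.62 for miR-664-5p. The ratio of replicate 3 to replicate 1 had a narrower range, from 2.17 for miR-6240 to 5.09 for miR-2137. With 3 libraries these are descriptions, and no correlation was computed among them.

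Set against the mean of the other 6 d libraries, replicate 2 was 11.1-fold higher for miR-6240, 10.6-fold for miR-2137, 4.32-fold for miR-6538, 2.50-fold for miR-6236 and 1.98-fold for miR-664-5p. By this fold on the log2(CPM + 1) scale they ranked 1, 2, 5, 17 and 29 of the 370 miRNAs, whose median log2 value was -0.16 and whose 5th to 95th percentiles were -1.89 to 1.12. miR-6240, miR-2137, miR-6538 and miR-6236 thus lay above the 95th percentile and miR-664-5p, at 0.98, within it. With library totals alone miR-6236, at 0.75, also lay within the 95th percentile of that scaling, 0.84. The other miRNAs with the highest fold among those with at least 50 reads were miR-5099 (6.33-fold), miR-3535 (3.32), miR-376b-5p (2.65), the liver miRNA miR-122-5p (2.50) and miR-185-5p (2.17). For miR-5099 the levels were 106, 1923 and 502 CPM at 6 d against 205, 210 and 305 CPM at 0 h, so it had the same order at 6 d but was abundant at 0 h too. The order of the upper libraries depended on the scaling for some members. With library totals alone, replicate 3 exceeded replicate 2 for miR-6236 (220 against 207 reads per 1000000) and miR-664-5p (254 against 209), while replicate 2 stayed the highest for miR-6538, miR-2137 and miR-6240 under each of the 4 scalings run.

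**Figure D3:**
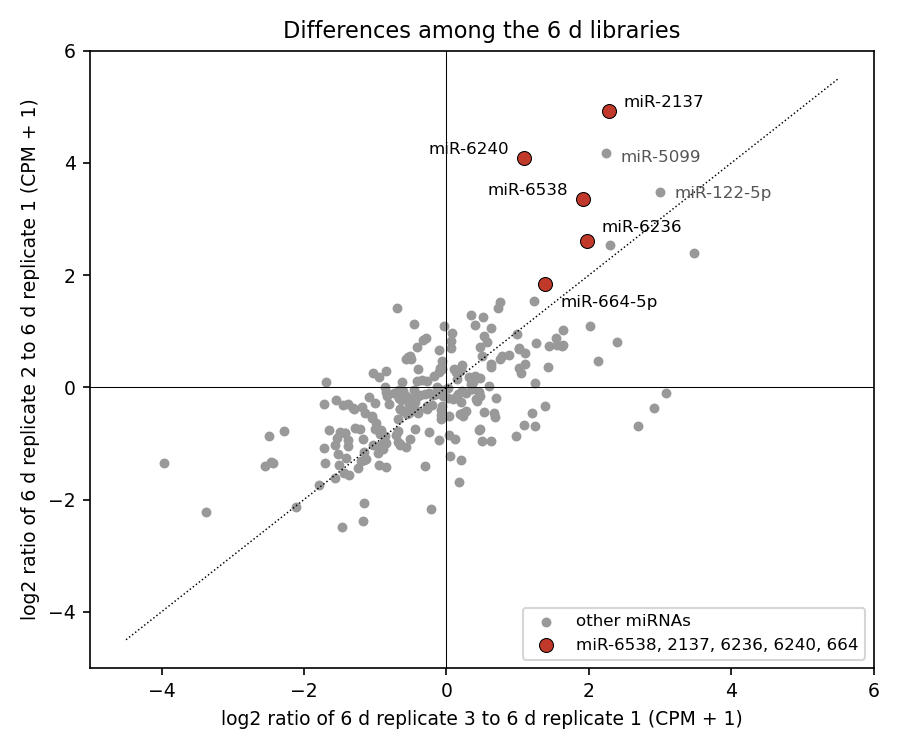
Each point is 1 of 240 miRNAs with at least 50 reads over the 6 d libraries, plotted by its log2 ratio of 6 d replicate 3 to replicate 1 (horizontal) and of 6 d replicate 2 to replicate 1 (vertical), both on CPM + 1, with equality of replicates 2 and 3 dotted. The 5 members shown (red) lie above 0 on both axes and above the dotted line of equal values, miR-2137 the highest at 4.93.

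Markers of other cells varied over the same libraries. The hepatocyte miRNA miR-122-5p was at 2086, 23460 and 16716 CPM in 6 d replicates 1, 2 and 3 against 702, 668 and 1406 CPM at 0 h. On the deposited scale its 6 d order is that of the members other than miR-664-3p, and 14.9% of 370 miRNAs had it. That order depends on the scaling. Reads of miR-122-5p were 3277, 17725 and 18525, and replicate 3 had the fewest reads in all, so with library totals alone replicate 3 was highest. The 2 red blood cell miRNAs summed to 66912, 95493 and 45155 CPM at 6 d against 13983, 15127 and 11573 CPM at 0 h, nearly all of it miR-451a. The other of these, miR-144-3p, had 45.8, 7.94 and 19.9 CPM at 6 d against 44.5, 30.6 and 29.3 CPM at 0 h, and was lowest in the library where the sum was highest. The 5 epithelial miRNAs summed to 2301, 1287 and 1396 CPM at 6 d against 119, 115 and 60.1 CPM at 0 h, a sum that was highest in replicate 1, whereas miR-205-5p among them was highest in replicate 3 (64.3, 46.3 and 103 CPM at 6 d). The skeletal muscle miRNA miR-206-3p had 979, 1440 and 685 CPM at 6 d against 15.3, 12.8 and 8.34 CPM at 0 h. The 3 leukocyte miRNAs summed to 398, 183 and 365 CPM at 6 d against 330, 278 and 339 CPM at 0 h, but did not move alike. Their log2 fold changes were 1.35 ± 0.55 for miR-223-3p, 0.16 ± 0.38 for miR-142a-3p and -0.79 ± 0.47 for miR-150-5p (SE). None of these was called by limma, while edgeR called miR-223-3p higher. The brain miRNAs miR-9-5p and miR-124-3p summed to 70.01, 54.3 and 539 CPM at 6 d against 171, 431 and 723 CPM at 0 h, with miR-124-3p at 0 in 6 d replicates 1 and 2 and 0 h replicate 1. The endothelial miR-126a-3p had 34088, 26358 and 24644 CPM at 6 d against 56304, 71219 and 87560 CPM at 0 h. The part of these cells, and of depth, in the members' levels was not tested. In bulk tissue, fewer cells of a type and less RNA per cell cannot be told apart.

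The make-up of the GC-rich members within a library does not depend on its scaling, and it differed among the 6 d libraries. The share of miR-6538 in the reads of the 4 was 56.0%, 44.6% and 57.7% in 6 d replicates 1, 2 and 3. The share of miR-2137 was 9.75%, 24.1% and 13.5%, and that of miR-6236 was 17.3%, 8.36% and 18.9%. The share of miR-6240 was 17.0%, 22.9% and 9.99%. Replicate 2 thus held relatively more miR-2137 and less miR-6236 and miR-6538 than both other libraries, with 95% exact binomial intervals that did not overlap. For miR-2137 this was 22.1 to 26.2% against upper bounds of 13.9% and 16.2%. For miR-6236 it was 7.10 to 9.76% against lower bounds of 13.1% and 16.1%, and for miR-6538 42.3 to 47.0% against lower bounds of 49.9% and 54.0%. These intervals compare libraries, not conditions. So the members were high together in replicate 2 without keeping a fixed ratio to each other. At 0 h the 4 had 10 to 19 reads in all per library, too few to compare their make-up.

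**Figure D4:**
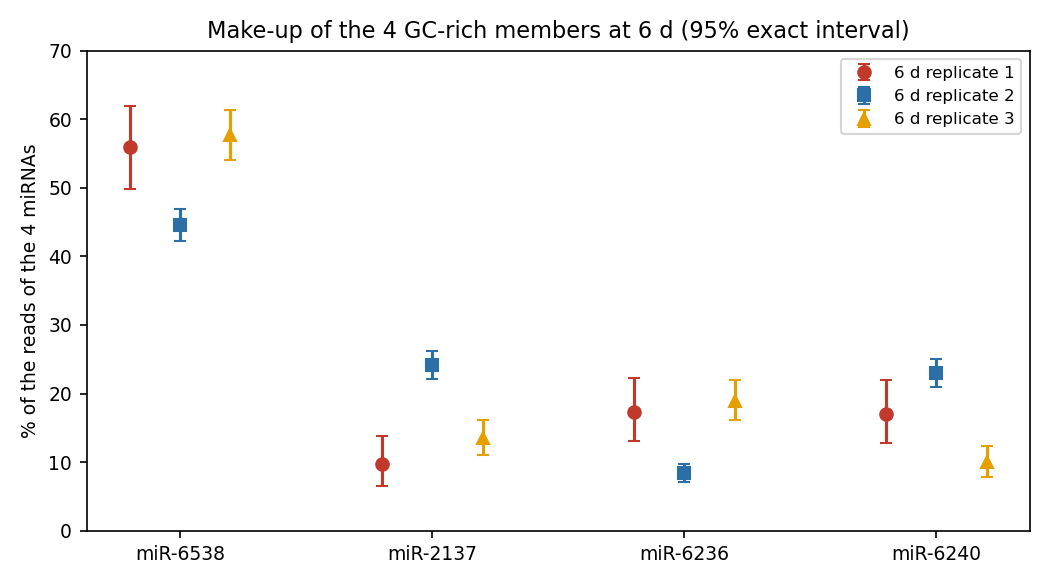
Share of each GC-rich member in the reads of the 4 (vertical, percent) in the 3 libraries at 6 d, with 95% exact binomial intervals for counting error. In replicate 2 (blue squares) miR-2137 is at 24.1%, miR-6236 at 8.36% and miR-6538 at 44.6%, each apart from both other libraries.

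The balance of the miR-664 arms differed between 6 d and 0 h. Of the reads of both arms, miR-664-5p took 89.4% (95% exact binomial interval 81.3 to 94.8, 94 reads), 98.6% (95.2 to 99.8, 148 reads) and 95.7% (91.4 to 98.3, 164 reads) in 6 d replicates 1, 2 and 3. At 0 h its share was 31.6% (12.6 to 56.6, 19 reads), 44.4% (27.9 to 61.9, 36 reads) and 25.6% (13.04 to 42.1, 39 reads). All 6 d intervals lay above all 0 h intervals. By reads miR-664-3p was the larger arm in each 0 h library, but the intervals of 0 h replicates 1 and 2 include equal shares. Expressed as log2 of (5p reads + 1) over (3p reads + 1), the balance was 4.29 ± 1.33 at 6 d and -0.92 ± 0.58 at 0 h (SD, n = 3 each), a difference of 5.21 ± 0.71 (SE). It was 4.54 without 6 d replicate 2 and 5.88 without 6 d replicate 1. The 3p arm had 2 to 10 reads per 6 d library, which limits the precision of the ratio, and the 5p arm had 6 to 16 reads per 0 h library.

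**Figure D5:**
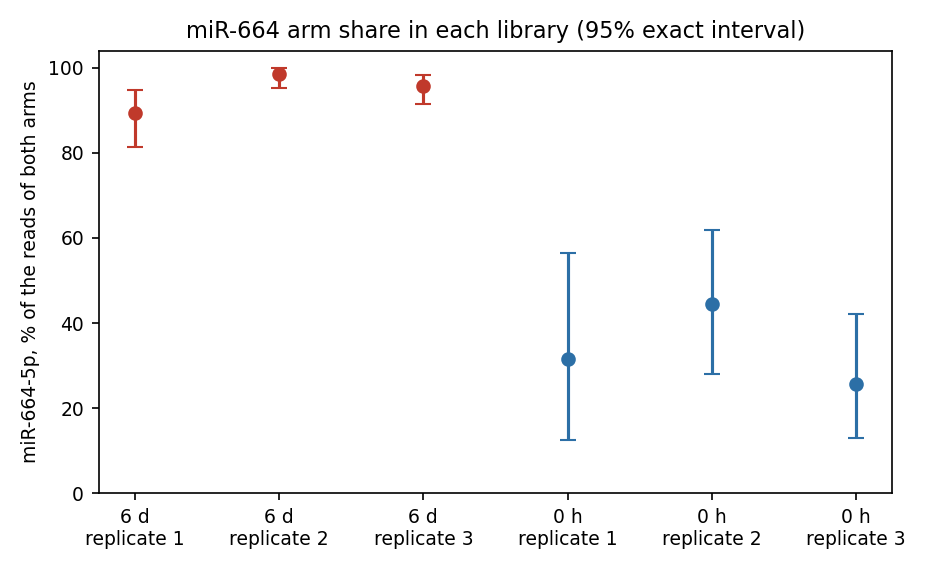
Share of miR-664-5p in the reads of both miR-664 arms (vertical, percent) in each library, 6 d in red and 0 h in blue, with 95% exact binomial intervals for counting error. The 6 d shares lie between 89.4% and 98.6% and the 0 h shares between 25.6% and 44.4%.

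Among the 116 precursors with both arms tested, the difference for miR-664 was the second in size after miR-677 (5.34 ± 1.05, SE), while the median absolute difference was 1.26. In 28.4% of the 116 the 5p to 3p ratio in all 6 d libraries was above that in all 0 h libraries, as for miR-664. The arm ratio was among the values known when the members were chosen, so no test is given.

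Snora36b is not the only structural RNA that holds miRNA entries. Over the 851 miRNAs, 20 had their whole mature sequence inside one of the structural RNAs searched, counting both arms of miR-664. Of the other 18, 14 were tested, and 6 rose and 1 fell by limma, where 16.0% of all 470 were higher and 37.9% were called in either direction. Of the 6 that rose, 3 (miR-5121, miR-677-5p and miR-6516-3p) had no 0 h library at 1 CPM. They passed the filter only through the 6 d libraries, and their direction is partly fixed by it. For miR-1291, 2 of the 0 h libraries reached 1 CPM, so it passed with the help of the 6 d libraries. In this set miR-6516-3p, within the scaRNA Gm26083, had 8, 26 and 32 reads at 6 d against 2, 5 and 5 at 0 h (log2 fold change 3.46 ± 0.64, SE). The level of miR-5121, within Snord33, was 3.18, 18.5 and 6.32 CPM at 6 d against 0, 0.166 and 0.154 CPM at 0 h (2.93 ± 0.56, SE). For miR-1291, within Snora34, the log2 fold change was 2.44 ± 0.44 (SE), and for miR-3068-5p, within Mir3068, which GENCODE lists as a snoRNA, -1.83 ± 0.41 (SE). The others that rose were miR-677-5p (2.70), miR-1843a-3p (2.61) and miR-1843b-3p (1.58), and reads of the similar miR-1843a and miR-1843b may have been split between them. Within a GENCODE scaRNA, miR-1839-5p had 470, 359 and 191 CPM at 6 d against 199, 230 and 157 CPM at 0 h, and was not called.

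The arm ratios of these precursors moved either way. Like miR-664, miR-677 (in a GENCODE snoRNA) moved toward its 5p arm, with 13, 7 and 5 reads of 5p and 1, 19 and 11 reads of 3p at 6 d against 1, 1 and 2 reads of 5p and 100, 62 and 89 reads of 3p at 0 h. The ratio moved toward the 3p arm for miR-6516 (-3.93 ± 0.47, SE, rank 6 of 116 by size), miR-3068 (-2.69 ± 0.75), miR-1843a (-2.50 ± 0.99) and miR-1843b (-2.11 ± 0.61). For miR-1839 it was 0.26 ± 0.57, within its error. These precursors therefore differed in the arm that gained. Read numbers were low for miR-677 and miR-6516, and at 6 d for miR-3068 (14, 7 and 5 reads of 5p, and 8, 18 and 23 of 3p). The shifts of miR-1843a and miR-1843b may not be independent, since their reads may have been split between them.

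A list of 31 miRNA names that may come from other RNA classes, or that are late single-arm entries, was drawn up with earlier results known. It had 19 rows in the files, of which 6 are the members. Of the other 13, 10 were tested, and 3 rose (miR-1291, miR-5121 and miR-6239) and 1 fell (miR-3068-5p) by limma, where 16.0% of all 470 were higher. By edgeR 1 of 7 rose and 1 fell, where 22.3% of all 363 were higher. Of the 3 that rose, miR-5121 and miR-6239 had no 0 h library at 1 CPM and passed the filter only through the 6 d libraries. Reads of miR-6239 were 3, 22 and 16 at 6 d against 2, 1 and 1 at 0 h, and those of miR-5126 were 1, 6 and 0 at 6 d against 0 in each 0 h library. Reads of miR-1983 were 9, 1 and 6 at 6 d against 16, 44 and 51 at 0 h, with a log2 fold change of -0.62 ± 0.53 (SE). Of those tested and not called, miR-5099 had a log2 fold change of 0.99 ± 0.85, miR-3068-3p 0.77 ± 0.57, miR-1839-5p 0.72 ± 0.39, miR-1839-3p 0.31 ± 0.39 and miR-5100 -0.28 ± 0.40 (SE). The remaining entries, miR-3473a and miR-3473d, had 1 read each over all libraries and were not tested.

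The miRNAs whose profile was most like that of the GC-rich members were sought over the 6 libraries. Pearson's r of log2(CPM + 1) with the mean profile of the 4 was computed for the 275 miRNAs with a mean of at least 10 CPM. The libraries form 2 groups, so r mostly follows the difference between intervals and is a description only. Of the members outside the mean, miR-664-5p had an r of 0.988, while miR-664-3p was below 10 CPM on average and was not compared. The 4 themselves, which form the mean, had 0.992 to 0.996. Of the 275 miRNAs, members included, 23 had an r above 0.9. The nearest others were miR-133b-3p (0.983) and miR-133a-3p (0.968) of muscle, miR-6516-3p (0.979), miR-222-3p (0.968) and miR-382-5p (0.960). Their differences were smaller than those of the GC-rich members, with log2 fold changes of 2.06 ± 0.32 for miR-133b-3p, 1.43 ± 0.31 for miR-133a-3p, 1.25 ± 0.32 for miR-222-3p and 2.52 ± 0.37 for miR-382-5p (SE, n = 3 each).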

How the data were processed

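Trizol extraction and NEBNext Multiplex Small RNA library preparation are given per the labels' protocols. FastQC, Trimmomatic 0.39, cutadapt 2.8 and STAR 2.5.3a are named, with no role, per the submitters' processing notes. Which counter, annotation and genome build served is not given in the sources used here. For 0 h replicate 1 the authors deposited raw counts. The other 5 deposited files hold log2(x + 1) of scaled reads with 3 decimals. All 2692 of 2692 values that could be tested were whole multiples of 1 step per library within rounding (0.0005), which gave whole reads. Another 418 nonzero values were too large to test. The counts of 0 h replicate 1 were put on the scale of the others by a derived factor, 0.919, which makes the product of all 6 equal to 1 and is not the authors'.

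Fold changes and calls come from limma 3.58.1 (trended, robust) on log2(CPM + 1), with Benjamini-Hochberg adjusted p under 0.05. The fit was run on simulated data too, with rises and falls drawn alike for randomly picked miRNAs. That setting does not copy members near-absent at 0 h or the deposited scaling, so nothing is read from it for the members. A pseudocount of 1 understates changes of low miRNAs. Where replicates may be technical, standard errors cover that spread only. Alternatives used edgeR 4.0.16 and DESeq2 1.42.0 on recovered reads, other scalings, filters and pseudocounts, a replicate block and the omission of each library, which kept the 470 miRNAs of the full fit. Hairpins were folded with RNAfold 2.7.2. Named miRNAs are the members, the 5 nearest profiles, the 5 others highest in 6 d replicate 2, and a list of entries that may come from other RNA classes. Others were chosen after their values were seen. The members and lists were chosen with earlier results of these data known.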

Additional observations from a re-analysis of the deposited data

How the results depend on the processing

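The direction of each member's log2 fold change held in every alternative run, except that miR-664-3p fell below the filter of a mean of 10 CPM and has no value there. With edgeR the log2 fold changes were 9.56 for miR-6538, 10.6 for miR-2137, 7.84 for miR-6236, 7.74 for miR-6240 and 6.26 for miR-664-5p, and with DESeq2 9.69, 10.8, 7.97, 7.86 and 6.32 in that order. With library totals alone the fold of 6 d replicate 2 over the other 6 d libraries fell to 2.93 for miR-6538, 6.97 for miR-2137, 1.69 for miR-6236, 8.04 for miR-6240 and 1.40 for miR-664-5p, since 6 d replicate 3 has the largest scaling factor (1.80). With 1 library left out, the log2 fold change ranged from 6.81 to 8.50 for miR-6538, 5.14 to 7.60 for miR-2137, 5.35 to 6.66 for miR-6236, 4.49 to 6.53 for miR-6240, 4.96 to 5.87 for miR-664-5p and 0.16 to 0.67 for miR-664-3p, and the miR-664 arm difference from 4.54 to 5.88. The number of miRNAs called over all was 178, 119 to 194 with 1 library left out, 123 with library totals alone (83 higher and 40 lower, against 75 and 103), 174 with RLE factors (90 and 84), 156 with edgeR (81 and 75), 171 with DESeq2 (97 and 74) and 195 with the replicate block, which left the members' log2 fold changes as they were. The lowest count was without 0 h replicate 1 and the highest without 6 d replicate 3. Same-numbered libraries deviated together with r = 0.07, 0.06 and 0.27, and differently numbered ones with r from -0.22 to 0.16. These values do not decide whether the numbers mark pairs. The labels name no pairs, so the main fit used none. The median of all tested miRNAs was -0.33 as deposited, 0.02 with library totals alone, -0.17 with RLE factors and 0.52 with DESeq2. At 6 d, 1 read is worth 0.636 to 1.32 CPM, and miR-664-3p had 2 to 10 reads per library.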

Other observations

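Of the 401 tested miRNAs other than the members that had a RefSeq sequence, 3 had a GC content of 70% or more, and 0 of these were called higher by limma and 2 were lower. They were miR-339-3p (73.9% GC, log2 fold change -1.45), miR-770-3p (72.7%, -0.85, not called) and miR-700-3p (71.4%, -2.78). Of 46 miRNAs with 60 to 70% GC, 2 were higher and 11 lower at 6 d, with a median log2 fold change of -0.58. Of 130 with 50 to 60% GC, 17 were higher and 42 lower (median -0.64), of 141 with 40 to 50% GC, 27 were higher and 27 lower (median -0.11), and of 81 under 40% GC, 18 were higher and 9 lower (median -0.20). Over all 470 tested miRNAs, 75 were higher and 103 lower, with a median of -0.33. The medians were thus -0.20 and -0.11 in the classes under 50% GC and -0.64, -0.58 and -1.45 in those above. Within these ranges they did not strictly follow the order of the classes. Lower calls outnumbered higher calls in each class from 50% GC up. Among those with at least 50 reads at 6 d, the log2 fold of 6 d replicate 2 over the other 6 d libraries had a median of -0.15 over 12 miRNAs with 60 to 70% GC, -0.11 over 57 with 50 to 60%, -0.21 over 80 with 40 to 50% and -0.44 over 51 under 40%.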
